A study of Mus musculus with 10 samples.

Results

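The genes described here are 31 genes of the lysosome in mouse cortical neurons: 7 proteases, 11 glycosidases and sulfatases, 6 genes of lipid breakdown and export, 6 membrane proteins and the transcription factor gene Tfeb. They were chosen by symbol in a table of 21862 genes, to ask whether the higher Cd68 level with BDNF is shared by other lysosomal genes. All 31 were found in the count table of 48526 genes, and all 31 are among the 13452 genes that passed the filter on low counts and were tested. Cd68 led to the choice of the list, so its values with BDNF are given as a description with no test, and counts for BDNF, and for the difference between its responses under the 2 viruses, are over the other 30 genes.

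Lysosomes are acidic vesicles in which hydrolases break down proteins, glycans and lipids delivered by endocytosis and autophagy. Membrane proteins such as the LAMPs line them, a proton pump called the V-ATPase acidifies them, and most soluble hydrolases reach them through a mannose 6-phosphate tag. Transcription factors of the MiT/TFE family, TFEB among them, bind E-box sequences upstream of many lysosomal genes and can raise them together. In the brain, inherited loss of a lysosomal enzyme often causes storage disease of neurons, while CD68 protein is best known as a marker of microglia and macrophages. BDNF is a neurotrophin that acts on neurons through the TrkB receptor.

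The cells were primary cortical neurons of E16.5 C57BL/6J embryos, grown in neurobasal medium and exposed to 0.5 µM AraC, which kills dividing cells. Every culture received a lentivirus, either a control virus or one that drives the histone variant H2BE from a constitutive promoter. Cultures then received BDNF or were left unstimulated, and polyA RNA was taken 24 h later. This gives the groups Control, BDNF, H2BE and H2BE with BDNF, with 10 libraries of 5058074 to 14142545 counts. Levels are in CPM, counts scaled to a common library size, and a count of 3 equals 0.211 CPM in the library with most counts and 0.595 CPM in that with fewest.

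The libraries labelled replicate 3 of Control and of BDNF never exceeded replicate 1 of their group at any gene (0 genes in both), and hold 73.67% and 61.86% of its counts. They were therefore not used as replicates, which leaves 8 distinct libraries, 2 per group. The counts that replicate 1 holds beyond replicate 3 differ from those of replicate 3 by more than counting error (chi-squared per degree of freedom 4.636 in Control and 4.014 in BDNF, where a random subset would give about 1). Whether replicate 1 pools replicate 3 with another library was not tested. The labels do not say that replicates were separate cultures, so p-values measure the spread between these libraries only. H2bc21, the mouse gene of H2BE, was at 5.19 and 5.24 CPM in Control, 3.69 and 4.07 with BDNF, 42.9 and 35.7 with the H2BE virus, and 32.1 and 35.2 with both, so the libraries match their virus labels.

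Cd68, a heavily glycosylated relative of the LAMP proteins, is the gene the list was built around. It was at 5.19 and 4.54 CPM in the 2 Control libraries and at 17.4 and 18.3 CPM in the 2 BDNF libraries. With the H2BE virus it was at 3.68 and 3.37 CPM without BDNF and at 19.3 and 17.9 CPM with it. Under each virus the libraries with BDNF lie above those without and do not overlap them, a separation that 64.2% (control virus) and 63.4% (H2BE virus) of all genes tested show in one direction or the other. The fitted log2 difference with BDNF was 1.84 under the control virus, a 3.58-fold difference, and 2.38 under the H2BE virus, a 5.22-fold difference. In the replicate 3 libraries Cd68 was at 5.30 CPM (Control) and 16.4 CPM (BDNF). Cd68 lies on chromosome 11 from 69664213 to 69666153 on the minus strand (GRCm38, the same assembly as mm10), and no annotated gene shares its exons. The next gene upstream, Eif4a1, lies on the same strand and ends 783 bases from Cd68. Eif4a1, a translation initiation factor gene, differed less with BDNF: log2 0.10 (adjusted p = 0.166) under the control virus and 0.33 (adjusted p = 0.000189) under the H2BE virus.

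Other genes of microglia and macrophages were scarce in these cultures. Of 20 markers of microglia and macrophages, 13 did not reach the filter on low counts, and Tmem119, a defining microglial gene, was at 0 in 7 of the 8 libraries and at 1 count in the other. The summed level of the 20 markers was 21.2 and 22.0 CPM in Control and 21.2 and 19.8 CPM with BDNF. Under the H2BE virus it was 17.0 and 10.9 CPM without BDNF and 17.6 and 15.4 CPM with BDNF. The sums with and without BDNF met or overlapped under both viruses, whereas those libraries lay apart for Cd68. None of the 7 testable markers passed the test with BDNF under the control virus (0 of 7, against 31.4% of all genes). Their log2 differences ran from -1.03 to 0.172, and at such low counts small changes could not be detected. Under the H2BE virus 1 of 7 passed (14.3%, against 25.8% of all genes). This was Aif1, from 1 count in each library without BDNF to 13 and 8 counts with it (adjusted p = 0.0215, named after its values were seen). The 7 testable markers had a median log2 difference of -0.226 under the control virus, 2 positive and 5 negative, and of 0.52 under the H2BE virus, 5 positive and 2 negative. Single markers differed in direction, as 2 chosen after their values were seen show. Mpeg1, which had the highest mean level of the 20 in each group, was at 4.35 and 4.89 CPM in Control, 3.95 and 3.83 with BDNF, 5.10 and 3.37 with the H2BE virus, and 2.99 and 2.74 with both, so its libraries with BDNF are the lower ones. Csf1r, the receptor that microglia need to survive, did not reach the filter and had 5 and 4 counts in Control, 13 and 18 with BDNF, 6 and 2 with the H2BE virus, and 8 and 8 with both. In CPM this is 0.351 and 0.699, 1.12 and 1.47, 0.850 and 0.397, and 0.957 and 1.15, so its libraries with BDNF are the higher ones under both viruses. Fewer cells of a type and less RNA per cell cannot be told apart in bulk RNA, and the part of microglia in the Cd68 level was not tested beyond these values.

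**Figure D1:**
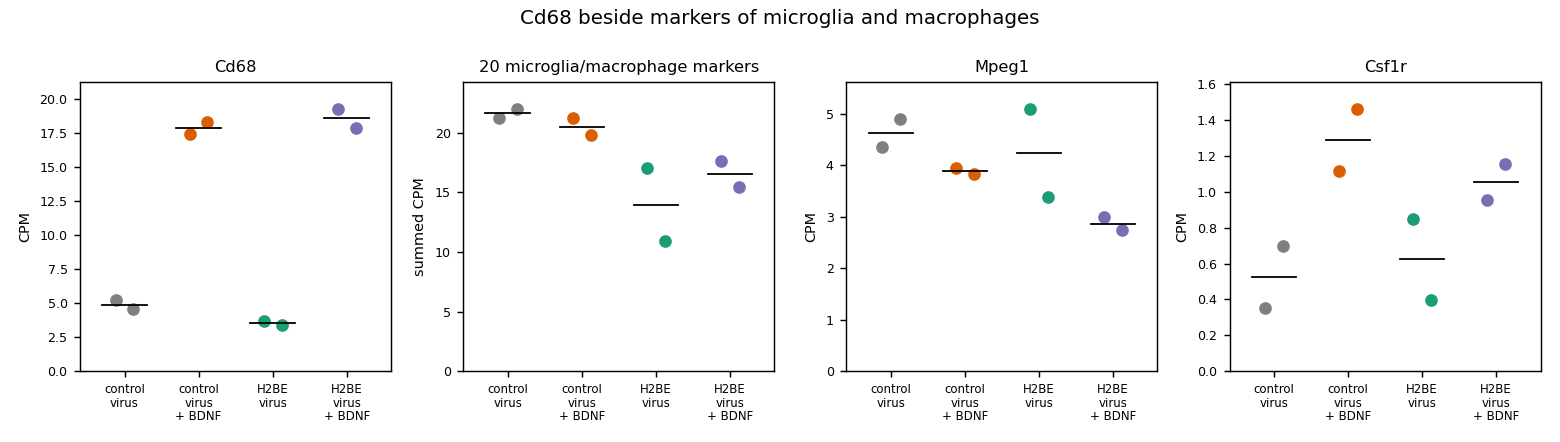
Level in CPM (vertical axes, linear, from 0) of Cd68, of the sum of 20 microglia and macrophage markers and of the markers Mpeg1 and Csf1r in the 4 groups; each point is 1 library and each line the mean of 2. Cd68 stands at 17.4 to 19.3 CPM with BDNF and 3.37 to 5.19 CPM without it, while the marker sums with and without BDNF meet or overlap, Mpeg1 is lower with BDNF, and Csf1r is higher with BDNF at no more than 1.47 CPM.

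Over the other 30 genes the response to BDNF had no common direction. Under the control virus 4 were higher and 7 lower (edgeR quasi-likelihood test, Benjamini-Hochberg adjusted p of at most 0.05), which is 36.7% of the 30 against 31.4% of all 13452 genes tested (16.8% higher, 14.6% lower). Under the H2BE virus 9 were higher and 9 lower, which is 60% against 25.8% of all genes (13.4% higher, 12.3% lower). The median log2 difference of the 30 genes was 0.0101 under the control virus and 0.05 under the H2BE virus, against -0.0098 and -7.14e-05 over all genes. No other gene of the list had a fitted change near that of Cd68: the next, Cd63 and Ctsf, differed by 0.67 and -0.65 on the log2 scale under the control virus. In all, 9 of the 30 passed in the same direction under both viruses, which is 30% against 16.3% of all genes. Of these, 3 were higher (Npc1, Lamp2 and Cd63) and 6 lower (Ctsf, Arsa, Arsb, Psap, Scarb2 and Mcoln1). The 9 are 81.8% of the 11 called under the control virus and 50% of the 18 called under the H2BE virus. The same shares over all genes were 51.8% and 63.2%. Under neither virus did 10 of the 30 pass, against 7981 of all 13452 genes. No gene of the list passed the test of the difference between the 2 responses (0 of 30, against 1.15% of all genes, 0.327% higher and 0.825% lower). Correction for transcript length and GC content made 7 higher and 7 lower under the control virus. DESeq2 called 6 of the 30 under the control virus, Ctsf, Psap, Npc1, Lamp2, Cd63 and Scarb2. Under the H2BE virus it called 7, Ctsa, Ctsd, Ctsf, Psap, Lamp2, Cd63 and Scarb2. Calls of the others among the 30 were by edgeR alone. The share of all genes called also differed between settings, with its range given at the end. The counts of other settings here are therefore not read as above or below a fixed share. Without Control replicate 1 the control-virus contrast gave 1 higher and 4 lower, without Control replicate 2 it gave 2 and 2, and without BDNF replicate 1 it gave 4 lower. Leaving out H2BE replicate 2 gave 2 higher and 4 lower under that virus, H2BE replicate 3 gave 4 and 4, and replicates 2 and 3 with BDNF gave 5 and 5, and 3 and 5.

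**Figure D2:**
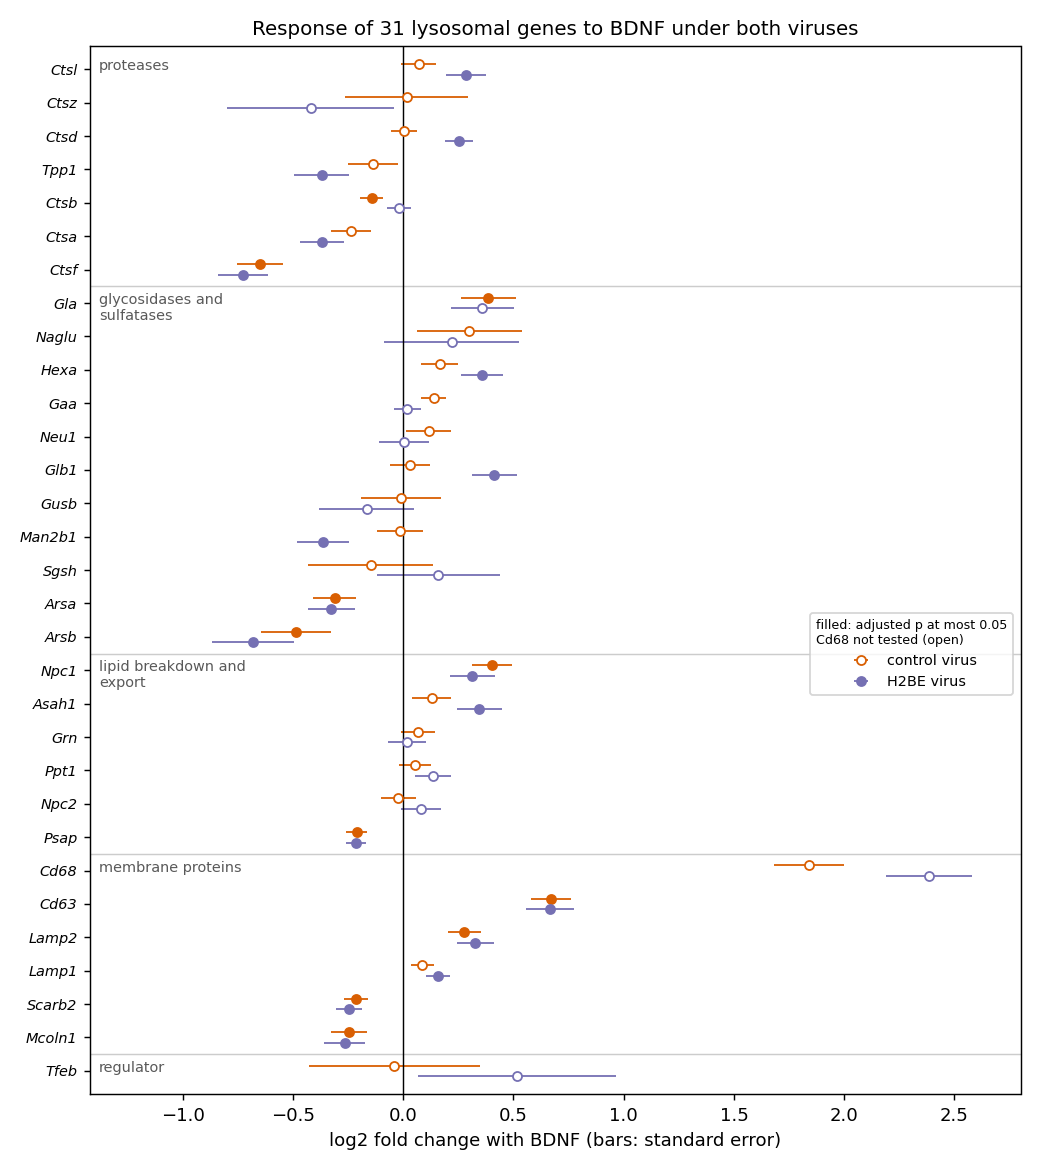
Log2 fold change with BDNF (horizontal axis) of all 31 genes, grouped by role, under the control virus (orange) and the H2BE virus (purple); bars are standard errors, and filled points passed an adjusted p of 0.05. Changes lie on both sides of 0 within every group of enzymes, and Cd68 lies apart at 1.84 and 2.38. Cd68 is shown open and marked as not tested because it led to the choice of the list, so its test is not given.

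Membrane proteins other than Cd68 split by gene, and the split was alike under both viruses. Cd63, a tetraspanin of late endosomes and lysosomes, was at 26.3 and 25.3 CPM in Control, 40.4 and 42.2 with BDNF, 21.5 and 20.6 with the H2BE virus, and 33.2 and 34.0 with both. Every library with BDNF was above every library without it. Under each virus alone, 64.2% (control virus) and 63.4% (H2BE virus) of all genes tested show no overlap. Cd63 rose by 0.67 ± 0.09 (SE) on the log2 scale under the control virus (adjusted p = 4.37e-05) and by 0.67 ± 0.11 under the H2BE virus (adjusted p = 0.000302), and both calls held in all 21 alternatives. Lamp2, a LAMP that lines the lysosome and serves as a receptor in chaperone-mediated autophagy, was at 61.6 and 61.0 CPM in Control, 73.4 and 75.3 with BDNF, 56.7 and 51.4 with the H2BE virus, and 66.8 and 69.5 with both. It rose by 0.28 ± 0.07 (adjusted p = 0.00946) and 0.33 ± 0.08 (adjusted p = 0.00811). Lamp1, the other classical LAMP, was at 276 and 273 CPM in Control, 286 and 298 with BDNF, 267 and 278 with the H2BE virus, and 304 and 304 with both. Its difference of 0.09 ± 0.05 under the control virus missed the threshold (adjusted p = 0.221), and its rise of 0.16 ± 0.05 under the H2BE virus was just past it (adjusted p = 0.0388).

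Of the same group, Scarb2 and Mcoln1 fell. Scarb2 encodes LIMP-2, a lysosomal membrane protein that also serves as a sorting receptor, and was at 235 and 246 CPM in Control, 202 and 211 with BDNF, 228 and 234 with the H2BE virus, and 195 and 195 with both. It fell by 0.22 ± 0.05 (adjusted p = 0.00629) and by 0.25 ± 0.06 (adjusted p = 0.00455) on the log2 scale. Mcoln1, the calcium channel of the lysosomal membrane, was at 57.3 and 60.3 CPM in Control, 47.5 and 51.1 with BDNF, 58.8 and 59.7 with the H2BE virus, and 46.6 and 52.2 with both. It fell by 0.25 ± 0.08 (adjusted p = 0.0326) and by 0.27 ± 0.09 (adjusted p = 0.0412). In neither gene did libraries with and without BDNF overlap, as in 64.2% (control virus) and 63.4% (H2BE virus) of all genes tested. DESeq2 called Scarb2 under both viruses and Mcoln1 under neither. Among these membrane proteins the calls of Lamp2 were lost without either Control library or, under the H2BE virus, without replicate 3 of either group (adjusted p up to 0.0896), and that of Scarb2 under the control virus without Control replicate 2 (0.059). Under the H2BE virus those of Lamp1 (up to 0.287) and Mcoln1 (up to 0.318) were lost without either Control library, either H2BE library or H2BE with BDNF replicate 2, for Lamp1 also replicate 3, and under the control virus that of Mcoln1 (0.158) without either Control library or BDNF replicate 1.

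**Figure D3:**
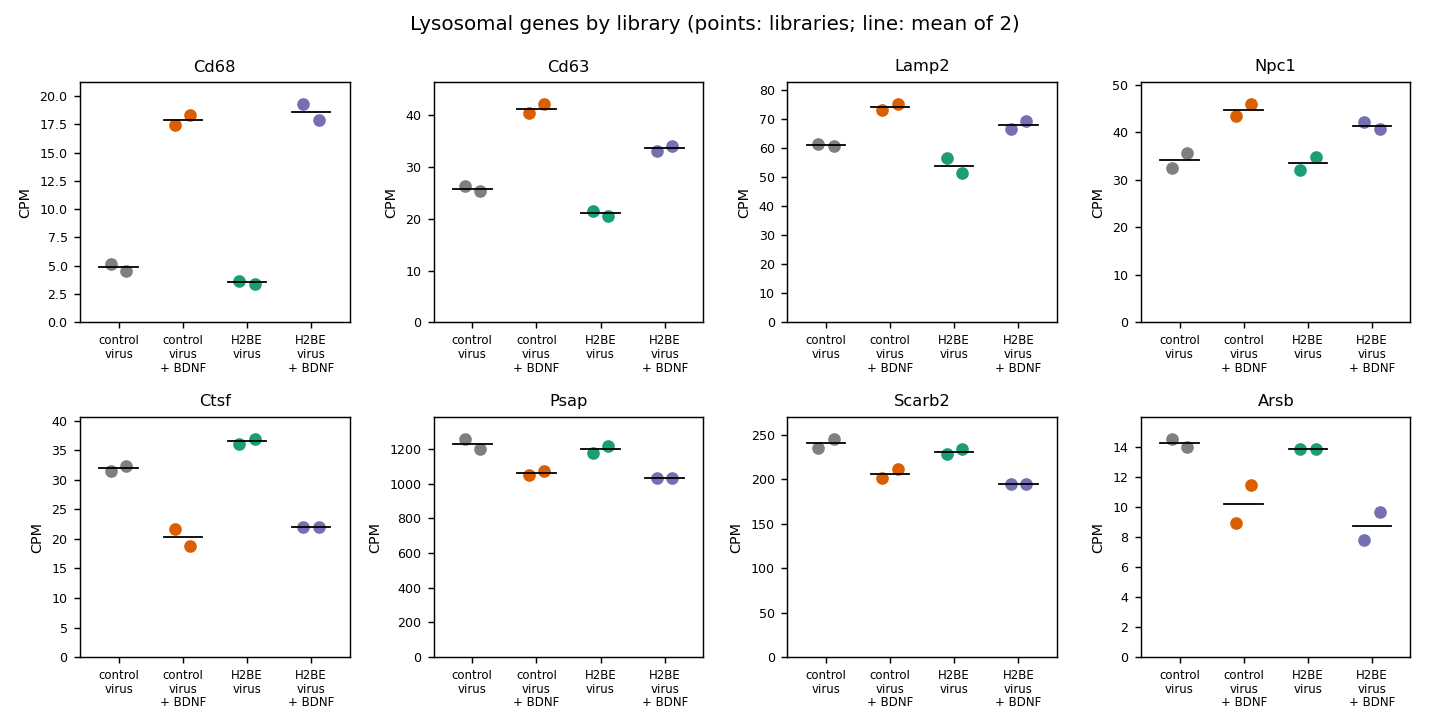
Level in CPM (vertical axes, linear, from 0) of 8 genes in the 4 groups; each point is 1 library and each line the mean of 2. Cd68, Cd63, Lamp2 and Npc1 are higher with BDNF under both viruses and Ctsf, Psap, Scarb2 and Arsb are lower, and Cd68 alone among them differs by more than 3-fold.

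The promoters of some of these genes are shown because TFEB and its relatives bind E-boxes, and factors activated by neuronal stimulation bind AP-1 and CRE sites. The sequences are the 250 bases before the RefSeq start site (GRCm38.p6), 5′ to 3′ on the gene's strand, and capitals mark matches to the E-box CACGTG or the AP-1 site TGANTCA. Windows were found for 28 of the 31 genes.
Cd68 (chr11:69666171-69666420, minus strand): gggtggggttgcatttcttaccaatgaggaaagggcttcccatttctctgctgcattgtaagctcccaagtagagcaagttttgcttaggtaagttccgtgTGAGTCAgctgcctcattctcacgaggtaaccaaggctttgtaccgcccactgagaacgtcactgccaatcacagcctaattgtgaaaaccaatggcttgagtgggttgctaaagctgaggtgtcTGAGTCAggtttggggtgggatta
Cd63 (chr10:128909095-128909344, plus strand): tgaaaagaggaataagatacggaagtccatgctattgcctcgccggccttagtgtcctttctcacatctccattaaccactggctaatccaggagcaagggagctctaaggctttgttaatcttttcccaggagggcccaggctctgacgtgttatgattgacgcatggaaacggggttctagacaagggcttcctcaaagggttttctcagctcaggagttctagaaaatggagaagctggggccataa
Lamp2 (chrX:38456461-38456710, minus strand): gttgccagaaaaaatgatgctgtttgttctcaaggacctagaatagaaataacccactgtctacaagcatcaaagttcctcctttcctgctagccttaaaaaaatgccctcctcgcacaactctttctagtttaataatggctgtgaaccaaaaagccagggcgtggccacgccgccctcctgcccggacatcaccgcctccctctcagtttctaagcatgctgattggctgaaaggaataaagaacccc
Lamp1 (chr8:13158911-13159160, plus strand): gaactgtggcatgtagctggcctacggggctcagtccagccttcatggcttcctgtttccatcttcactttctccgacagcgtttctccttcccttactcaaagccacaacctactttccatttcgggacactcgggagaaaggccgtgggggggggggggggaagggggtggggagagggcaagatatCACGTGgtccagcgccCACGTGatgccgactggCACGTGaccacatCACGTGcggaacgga
Ctsf (chr19:4854915-4855164, plus strand): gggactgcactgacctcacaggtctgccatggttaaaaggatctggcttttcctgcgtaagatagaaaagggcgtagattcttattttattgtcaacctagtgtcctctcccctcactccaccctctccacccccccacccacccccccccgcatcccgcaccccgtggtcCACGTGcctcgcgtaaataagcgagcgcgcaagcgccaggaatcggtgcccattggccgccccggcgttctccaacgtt
The Cd68 window holds 2 AP-1 matches, which begin 149 and 24 bases before the start, and no E-box. Those of Cd63 and Lamp2 hold none of these motifs. The Cd63 window lies inside the annotated gene, which begins at 128900989, so sequence before that start was not searched. The Lamp1 window holds 4 E-boxes within 61 bases of the start and that of Ctsf holds 1.

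Both strands were searched for 5 motifs in these windows. The E-box CACGTG was present in 12 of the 28 genes, Arsa, Ctsa, Ctsd, Ctsf, Ctsl, Gaa, Gla, Glb1, Lamp1, Mcoln1, Naglu and Sgsh, and in 12 of their 32 windows (37.5%) against 6.02% of all 32851 windows. Genes with and without it in these windows moved in both directions with BDNF. Ctsf, Arsa and Mcoln1 hold it and fell, and Gla holds it and rose under the control virus. The windows of Cd63 and Lamp2 lack it, and both genes rose. The AP-1 site TGANTCA was present in 4 genes, Cd68, Glb1, Neu1 and Psap (12.5% of windows against 6.75% of all). The longer CLEAR-type palindrome, the E-box with GT before it and AC after it, was in none of them (0.24% of all windows), nor was the CRE site TGACGTCA (1.55%). The related M-box CATGTG was in 3 (9.38% against 12.3%). A match describes these letters only.

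Of the 7 proteases, 0 were higher and 2 lower with BDNF under the control virus (28.6%, against 31.4% of all genes; 1 lower with RLE scaling, 3 with upper quartile scaling). With the H2BE virus 2 were higher and 3 lower (71.4%, against 25.8%). Ctsf, a cysteine protease, was at 31.5 and 32.3 CPM in Control, 21.7 and 18.9 with BDNF, 36.1 and 36.9 with the H2BE virus, and 22.0 and 22.1 with both. It fell by 0.65 ± 0.10 (adjusted p = 0.00018) and 0.73 ± 0.11 (adjusted p = 0.000195) on the log2 scale, to about 0.637 and 0.604 of its level without BDNF, and both calls held in all 21 alternatives. Ctsb, another cysteine protease, was at 390 and 382 CPM in Control, 345 and 353 with BDNF, 349 and 356 with the H2BE virus, and 334 and 363 with both. Its fall under the control virus was small (-0.14 ± 0.05, adjusted p = 0.049), and under the H2BE virus its libraries overlapped (-0.02 ± 0.05, adjusted p = 0.857). Another 4 proteases passed under the H2BE virus and missed the threshold under the control virus, and none of them passed the test of the difference between the responses.

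Ctsa, the carboxypeptidase that protects β-galactosidase and sialidase, was at 62.0 and 60.6 CPM in Control, 52.3 and 52.1 with BDNF, 64.2 and 72.1 with the H2BE virus, and 57.3 and 47.3 with both (-0.24, adjusted p = 0.0592, and -0.37, adjusted p = 0.0112). Tpp1, a tripeptidyl peptidase lost in a childhood neuronal storage disease, was at 33.5 and 36.9 CPM in Control, 28.1 and 35.2 with BDNF, 37.3 and 41.1 with the H2BE virus, and 31 and 29.3 with both (-0.14, adjusted p = 0.382, and -0.37, adjusted p = 0.0384). Both therefore fell under the H2BE virus. Ctsd, the main aspartic protease of lysosomes, was at 181 and 177 CPM in Control, 176 and 183 with BDNF, 143 and 156 with the H2BE virus, and 176 and 179 with both (0.00, adjusted p = 0.963, and 0.25, adjusted p = 0.0069). Ctsl, a cysteine protease, was at 109 and 101 CPM in Control, 101 and 121 with BDNF, 86.1 and 81.2 with the H2BE virus, and 102 and 102 with both (0.07, adjusted p = 0.548, and 0.28, adjusted p = 0.0287). For Ctsd and Ctsl the low libraries are those with the H2BE virus and no BDNF. Ctsz, a carboxypeptidase, was under 4 CPM in each of the 8 libraries tested and passed under neither virus (-0.42 ± 0.38 under the H2BE virus). The call of Ctsb was lost in 16 of 21 alternatives and without any 1 of the 8 libraries (adjusted p up to 0.226), and those of Ctsl (0.153) and Tpp1 (0.197) without any 1 of the 4 H2BE-virus libraries. That of Ctsa was lost without replicate 3 of either H2BE-virus group (0.15) and that of Ctsd without H2BE replicate 2 (0.149).

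Of the 11 glycosidases and sulfatases, 3 passed under the control virus (1 higher, 2 lower; 27.3%, against 31.4% of all genes) and 5 under the H2BE virus (2 higher, 3 lower; 45.5%, against 25.8%). Both arylsulfatase genes fell under each virus by edgeR, and DESeq2 called neither. Arsb, which removes sulfate from dermatan and chondroitin sulfate, was at 14.5 and 14.0 CPM in Control, 8.93 and 11.5 with BDNF, 13.9 and 13.9 with the H2BE virus, and 7.78 and 9.66 with both (-0.49 ± 0.16, adjusted p = 0.029, and -0.68 ± 0.19, adjusted p = 0.0135). Arsa, which removes sulfate from the myelin lipid sulfatide, was at 37.9 and 43.9 CPM in Control, 32.4 and 32.5 with BDNF, 37.7 and 39.5 with the H2BE virus, and 29.8 and 31.7 with both (-0.31 ± 0.10, adjusted p = 0.021, and -0.33 ± 0.11, adjusted p = 0.0355). In neither sulfatase did libraries with and without BDNF overlap, as in 64.2% (control virus) and 63.4% (H2BE virus) of all genes tested. The sulfatase Sgsh, which acts on heparan sulfate, was at 2.52 to 5.77 CPM and passed under neither virus.

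Among glycosidases, Gla, α-galactosidase A, was at 19.9 and 18.9 CPM in Control, 22.8 and 28.1 with BDNF, 17.4 and 20.4 with the H2BE virus, and 24.3 and 23.8 with both (0.39 ± 0.12, adjusted p = 0.0273, and 0.36 ± 0.14, adjusted p = 0.0784). Glb1, β-galactosidase, was at 33.8 and 32.2 CPM in Control, 33.3 and 34.3 with BDNF, 27.3 and 28.0 with the H2BE virus, and 36.9 and 36.8 with both (0.03 ± 0.09, adjusted p = 0.847, and 0.41 ± 0.10, adjusted p = 0.00699). Hexa, a subunit of β-hexosaminidase, was at 37.8 and 39.3 CPM in Control, 42.7 and 43.4 with BDNF, 33.9 and 34.3 with the H2BE virus, and 43.2 and 44.1 with both (0.16 ± 0.08, adjusted p = 0.152, and 0.36 ± 0.09, adjusted p = 0.0106). So Gla rose under the control virus, and Glb1 and Hexa rose under the H2BE virus, where their levels without BDNF were the lowest of the 4 groups. Man2b1, the lysosomal α-mannosidase, was at 30.1 and 29.0 CPM in Control, 30.6 and 28.2 with BDNF, 35.7 and 31 with the H2BE virus, and 27.8 and 24.2 with both (-0.01 ± 0.11, adjusted p = 0.932, and -0.36 ± 0.12, adjusted p = 0.0328). Gaa, Gusb, Naglu and Neu1, which break down glycogen, glucuronides, heparan sulfate and sialic acid conjugates, passed under neither virus, with log2 differences from -0.17 (Gusb) to 0.30 (Naglu). With the length and GC correction this group had 3 higher and 2 lower under the control virus and 2 higher and 1 lower under the H2BE virus. Each call of this group was lost with DESeq2, and each was lost without 1 library or another. Under the control virus those of Gla (adjusted p up to 0.217), Arsa (0.157) and Arsb (0.196) were lost without Control replicate 2, the first and last also without Control replicate 1, that of Arsb without BDNF replicate 1, and those of Gla and Arsa without BDNF replicate 2. Under the H2BE virus those of Hexa (0.103), Glb1 (0.0843), Man2b1 (0.319), Arsa (0.199) and Arsb (0.146) were lost without H2BE replicate 2, and all of these but Glb1 without at least 1 other H2BE-virus library.

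Of the 6 genes of lipid breakdown and export, Psap fell and Npc1 rose under both viruses. Psap, the precursor of the saposins that present sphingolipids to their hydrolases, had the highest level of the 31 genes per length of transcript (448 CPM per kb in Control, against 103 for Lamp1, next in order, and 3.87 for Cd68, which ranked 23). It was at 1258 and 1201 CPM in Control, 1049 and 1075 with BDNF, 1176 and 1218 with the H2BE virus, and 1031 and 1031 with both. It fell by 0.21 ± 0.05 (adjusted p = 0.00219) and 0.22 ± 0.05 (adjusted p = 0.0026) on the log2 scale, and both calls held in all 21 alternatives. Its libraries with and without BDNF did not overlap, as in 64.2% (control virus) and 63.4% (H2BE virus) of all genes tested. Npc1, the membrane transporter that exports cholesterol, was at 32.6 and 35.7 CPM in Control, 43.3 and 45.9 with BDNF, 32.2 and 34.7 with the H2BE virus, and 42.1 and 40.7 with both. It rose by 0.40 ± 0.09 (adjusted p = 0.00298) and 0.31 ± 0.10 (adjusted p = 0.0315). Its partner Npc2, the soluble cholesterol carrier, passed under neither virus (-0.02 ± 0.08 and 0.08 ± 0.09). Asah1, acid ceramidase, was at 39.6 and 35.8 CPM in Control, 43.4 and 40.0 with BDNF, 34.1 and 33.3 with the H2BE virus, and 42.4 and 43.5 with both (0.13 ± 0.09, adjusted p = 0.299, and 0.35 ± 0.10, adjusted p = 0.0192). The progranulin gene Grn and the thioesterase gene Ppt1 passed under neither virus, with log2 differences of 0.02 to 0.14. The call of Npc1 was lost without Control replicate 1 (adjusted p = 0.0996, the highest of its alternatives) and, under the H2BE virus, without any 1 of its 4 libraries (up to 0.268), as was that of Asah1 (up to 0.108).

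Tfeb itself was near the detection limit and passed no test. It was at 1.61 and 1.92 CPM in Control, 1.80 and 1.55 with BDNF, 0.991 and 2.18 with the H2BE virus, and 2.15 and 2.16 with both, on 7 to 23 counts. Its log2 differences were -0.04 ± 0.39 and 0.52 ± 0.45, so a moderate change could not be detected at this depth. Its value under the control virus was 0.00355 with the length and GC correction. Of the other genes of its family, Tfec had 2 counts in 1 of the 8 libraries and 0 in the others and was not tested, and Mitf and Tfe3 rose. Mitf was at 5.48 and 6.47 CPM in Control, 17.8 and 16.1 with BDNF, 4.82 and 5.56 with the H2BE virus, and 18.6 and 15.3 with both. Its libraries with and without BDNF did not overlap, as in 64.2% (control virus) and 63.4% (H2BE virus) of all genes tested. Mitf rose by 1.54 ± 0.17 (adjusted p = 4.04e-06) and by 1.72 ± 0.20 (adjusted p = 9.87e-06) on the log2 scale, and both calls held in all 21 alternatives. Tfe3 was at 22.9 and 25.5 CPM in Control, 34.3 and 35.2 with BDNF, 22.8 and 23.6 with the H2BE virus, and 29.0 and 29.1 with both. It rose by 0.54 ± 0.10 (adjusted p = 0.000584) and by 0.33 ± 0.11 (adjusted p = 0.0459), where the latter call was lost in 13 of 21 alternatives and without either Control library or any H2BE-virus library (up to 0.251).

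**Figure D4:**
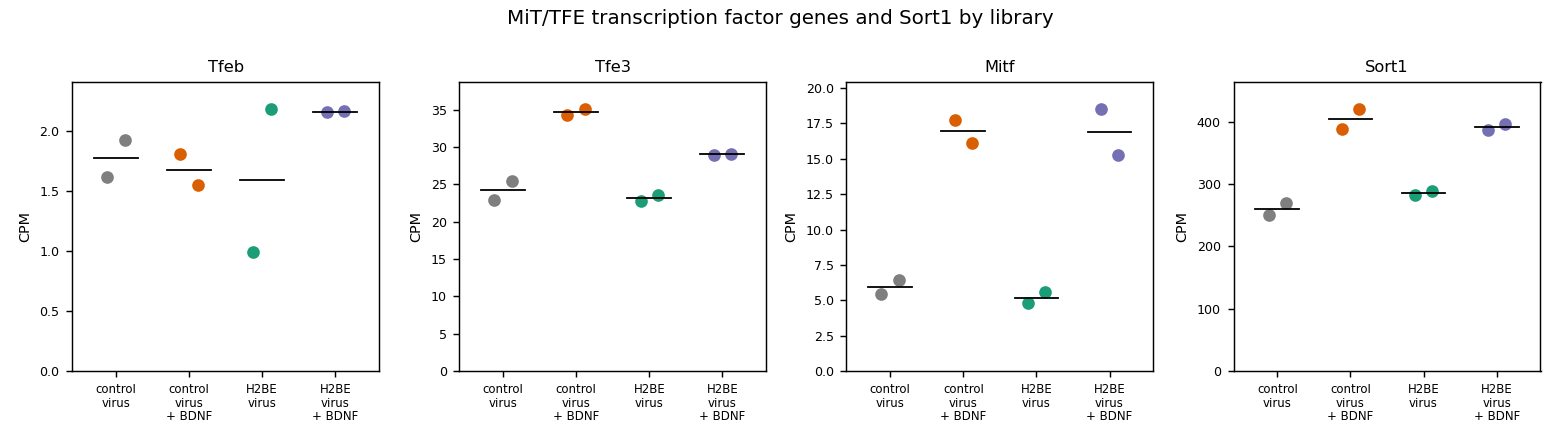
Level in CPM (vertical axes, linear, from 0) of the MiT/TFE genes Tfeb, Tfe3 and Mitf and of the sorting receptor gene Sort1 in the 4 groups; each point is 1 library and each line the mean of 2. Mitf stands at 15.3 to 18.6 CPM with BDNF and 4.82 to 6.47 CPM without, Tfe3 and Sort1 are higher with BDNF under both viruses, and Tfeb stays between 0.991 and 2.18 CPM.

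Wider lists of lysosomal genes place these values. For sorting to the lysosome, 6 of 17 genes were higher and 0 lower with BDNF under the control virus, and 7 higher and 0 lower under the H2BE virus, with medians of 0.114 and 0.16, where 16.8% and 13.4% of all genes were higher. Calls were 35.3% and 41.2% of the list. Sort1, the receptor sortilin, which also binds BDNF precursor, rose by 0.64 ± 0.06 (adjusted p = 4e-07), from 251 and 269 CPM to 388 and 421 CPM, and by 0.46 ± 0.06 (adjusted p = 2.82e-05) under the H2BE virus. The adaptor subunit genes Ap3b1 (0.55 and 0.37) and Ap3d1 (0.32 and 0.25) rose under both viruses, and Igf2r, the large mannose 6-phosphate receptor, rose under the control virus (0.40, adjusted p = 0.00021) and was at 0.16 under the H2BE virus (adjusted p = 0.1). The Ap3b1 call under the H2BE virus was lost without either H2BE library or H2BE with BDNF replicate 2 (adjusted p up to 0.0558), and those of Sort1 and Ap3d1, the Igf2r call and the other Ap3b1 call held in all 21 alternatives. The 16 tested genes of the TFEB family and nutrient sensing had 6 higher and 2 lower under the control virus (50%, against 31.4% of all genes; 7 and 0 with the length and GC correction) and 3 and 0 under the H2BE virus (18.8%, against 25.8%; 1 and 0 with upper quartile scaling), with medians of 0.0726 and 0.11. The kinase gene Mtor (0.38) and its partner Rptor (0.33) were among those that rose under the control virus. The Mtor call held in all 21 alternatives, and that of Rptor was lost with the length and GC correction together with the replicate block (adjusted p = 0.071).

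The other hydrolases and cofactors had 5 higher and 2 lower of 27 under the control virus (4 and 4 with upper quartile scaling). Under the H2BE virus they had 3 and 4 (2 and 5), and the medians were -0.058 and 0.0326. Calls were 25.9% of the list under each virus, against 31.4% and 25.8% of all genes. Smpd1, acid sphingomyelinase, rose under both viruses (0.41 and 0.33), and the protease Lgmn fell (-0.35 and -0.34). Smpd1 went from 128 and 126 CPM in Control to 170 and 168 CPM with BDNF, and both of its calls held in all 21 alternatives. The other membrane proteins had 2 higher and 4 lower of 18 under the control virus (1 and 4 with upper quartile scaling, 1 and 5 with the length and GC correction). Under the H2BE virus they had 1 and 2. Calls were 33.3% and 16.7% of the list, against 31.4% and 25.8% of all genes. Mfsd8 (-0.66), the peptide transporter Abcb9 (-0.49), Laptm4a (-0.29) and the sialic acid exporter Slc17a5 (-0.54) fell under the control virus. Of these Laptm4a also fell under the H2BE virus (-0.27, adjusted p = 0.00882). Without Control replicate 1 the control-virus calls of Lgmn (adjusted p = 0.179), Laptm4a (0.0515) and Slc17a5 (0.158) were lost, the last also without Control replicate 2 or BDNF replicate 2. Under the H2BE virus those of Lgmn (adjusted p up to 0.102) and Laptm4a (0.0825) were lost without 1 or more of its 4 libraries, H2BE replicate 3 in each case.

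Of the 18 V-ATPase genes, 2 were higher and 5 lower with BDNF under the control virus and 4 higher and 2 lower under the H2BE virus, or 38.9% and 33.3% of the list against 31.4% and 25.8% of all genes. Upper quartile scaling gave 1 and 9, and 3 and 3, and the length and GC correction 2 and 3, and 4 and 3. Atp6v0a2, a membrane subunit, rose under both (0.53 and 0.43) and Atp6v1g2 fell under both (-0.20 and -0.29), while Atp6v0b (-0.29) and Atp6v1e1 (-0.19) fell under the control virus. The 24 autophagy genes had 3 higher and 5 lower under the control virus and 2 and 6 under the H2BE virus (1 and 6 with upper quartile scaling, 4 and 5 with the length and GC correction). Calls were 33.3% of this list under each virus, against the same 31.4% and 25.8% of all genes. The kinase gene Ulk2 fell under both viruses (-0.34 and -0.42), Gabarap (-0.30) fell and Nbr1 (0.32) and Uvrag (0.38) rose under the control virus. The calls of Atp6v1e1 (adjusted p up to 0.184), Atp6v1g2 (0.078) and Uvrag (0.0933) under the control virus were lost without Control replicate 1, and that of Atp6v1g2 also without Control replicate 2 or BDNF replicate 1. That of Atp6v0a2 under the H2BE virus was lost without replicate 2 of either group (0.11).

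The H2BE virus alone moved few of these genes. Against Control, 0 of 31 were higher and 1 was lower (3.23%, against 2.13% of all genes, 1.33% higher and 0.803% lower): Ctsd (-0.26 ± 0.06, adjusted p = 0.0379), whose call was lost in 11 of 20 alternatives and without either library of Control, H2BE or H2BE with BDNF (adjusted p up to 0.426). The sign of the difference was negative in 24 of the 31 (77.4%, against 49.9% of all genes) and in 23 with the length and GC correction, under which 5 genes changed sign. The largest difference was that of Sgsh (0.57, adjusted p = 0.322). Cd68 was at a mean of 3.53 ± 0.22 (SD, n = 2) CPM with the H2BE virus and 4.87 ± 0.46 CPM in Control, a difference of -0.49 ± 0.23 that did not pass the test (adjusted p = 0.287). The 7 testable microglia and macrophage markers had a median log2 difference of -1.02, 0 positive and 7 negative, and 0 passed the test. The part of microglia in this Cd68 difference was not tested. Of the V-ATPase genes, 3 of 18 were lower (16.7%, against 0.803% of all genes). These were Atp6v0b (-0.24), Atp6v1d (-0.30) and Atp6ap2 (-0.24), the last chosen after its values were seen. The calls of Atp6v0b (adjusted p up to 0.442) and Atp6v1d (0.349) were lost without either Control or either H2BE library.

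With BDNF present, the comparison of the H2BE virus with the control virus gave 0 of 31 calls by edgeR (0.0223% of all genes, 0.0149% higher and 0.00743% lower). DESeq2 gave 0 calls and no adjusted p for 3 genes. By edgeR 3 were at an unadjusted p under 0.05. Those 3 were Cd63 (-0.30), Ctsz (-0.84) and Sgsh (0.88). The difference between the BDNF responses likewise had 0 calls of 30 by either tool (DESeq2 gave no adjusted p for 18), with 3 at an unadjusted p under 0.05, Ctsd (0.25), Glb1 (0.38) and Man2b1 (-0.35). The share of all genes at this unadjusted threshold was not computed for either comparison, so these counts cannot be set against it. For Cd68, given with no test, the difference between the BDNF responses was 0.54 on the log2 scale. The 7 testable microglia and macrophage markers had a median of 0.776, 5 positive and 2 negative, and 0 passed the test.

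Marker genes of other cell types were measured in the same libraries. Neuron markers summed to 8207 to 9016 CPM, with 4 higher and 4 lower of 11 with BDNF under the control virus and 4 higher and 5 lower under the H2BE virus (72.7% and 81.8%, against 31.4% and 25.8% of all genes). Oligodendrocyte lineage markers summed to 54.7 to 60.5 CPM without BDNF and 86.9 to 98.3 CPM with it, and 1 of 8 passed under each virus (12.5%), Mbp (1.34 and 1.26). Without Mbp the sum was 31.2 to 38.9 CPM without BDNF and 32.9 to 45.7 CPM with it. Astrocyte markers summed to 396 to 479 CPM, with 2 of 9 higher under the control virus (22.2%; Slc1a2, 0.22, and Gja1, 0.87; 1 with upper quartile scaling or the length and GC correction) and 1 of 9 lower under the H2BE virus (11.1%; Aqp4, -1.06). Endothelial and mural markers summed to 27.2 to 36.6 CPM, with 0 of 3 and 1 of 3 (33.3%) called (Rgs5, 0.49). For every list these shares stand against the same 31.4% (control virus) and 25.8% (H2BE virus) of all genes. The marker genes named here were picked after their values were seen, and the part of other cell types in the lysosomal results was not tested.

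Where genes share exons, counts of both can mix, since the strand setting of the counting is not given in the sources used here. Ctsd shares 34.4% of its exon bases with Gm49369 on the same strand and Arsb 32.3% with a non-coding gene, both at 0 counts in every library. Ctsl shares 26.8% with an antisense gene, Sgsh 21.6% with Card14 (0 to 2 counts), Arsa 18.8% with an antisense gene (9 to 16 counts), and Ctsb 12.8% and Hexa 12.8% with Fdft1 and Tmem202. Ctsa shares 10.5% with Pltp and 6.87% with Neurl2. Lamp1 shares 9.31% with Grtp1, Glb1 5.49% with Tmppe on the same strand, and Npc1 4.52% with Rmc1. Rmc1 had 451 and 209 counts in Control and 479 and 432 with BDNF, near those of Npc1. Ppt1 shares 3.51% with the abundant gene Cap1. Cd68, Cd63, Lamp2 and Ctsf, Psap and Mcoln1 share none.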

How the data were processed

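RNA of the 10 libraries was sequenced from polyA RNA after an NEBNext Ultra II preparation, per the labels. The submitters' processing notes name mm10, SAMtools, DESeq2 and deepTools without versions or roles, with aligner, counting tool and strand setting not given in the sources used here. Raw counts deposited by the authors cover 48526 genes and entered every test. A deposited table of normalized signal, which divides the counts by 1 size factor per library, lists 21862 genes (4159 without a symbol) and gave the symbols.

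Counts were scaled by TMM and tested with edgeR 4.0.16 (limma 3.58.1, R 4.3.3), by a quasi-likelihood F test with 1 mean per group over the 8 distinct libraries, on the 13452 genes kept by filterByExpr (minimum count 10, minimum total 15), which hold 99.78% of counts. A call is a Benjamini-Hochberg adjusted p of at most 0.05 over all genes tested. A standard error is the fitted log2 change divided by the root of F. CPM uses the effective library size. Replicate 1 of Control and BDNF stands for itself and replicate 3, since it contains all counts of replicate 3. The code was tested on simulated data.

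The members and lists were chosen with earlier results of these data known. Named genes are Cd68, Lamp1, Lamp2 and Tfeb, members called in any contrast, and the 4 genes of each wider list with the smallest p for BDNF against Control; some genes this rule names are not reported here. Same-numbered libraries did not deviate together (correlations -0.17 and -0.299), so no replicate block was used. Alternatives were RLE and upper quartile scaling, DESeq2 1.42.0, other filters, other uses of replicates 1 and 3, a length and GC correction (lowess span 0.3), replicate blocks, fits of the compared groups alone, and leaving out each library. Gene positions and exon lengths are from GENCODE M21 and promoter windows from RefSeq. Intervals of depth cover counting error only.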

Additional observations from a re-analysis of the deposited data

Results flagged for a closer look

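The V-ATPase subunit genes Atp6v0b and Atp6v1d passed the test of a difference between the BDNF responses under the 2 viruses, an interaction term in the edgeR fit. They are 2 of the 18 V-ATPase genes (11.1%, against 1.15% of all genes). For Atp6v0b the H2BE-virus response minus the control-virus response was 0.3663 on the log2 scale (adjusted p = 0.0452), with 264 and 259 CPM in Control, 215 and 214 with BDNF, 212 and 231 with the H2BE virus, and 227 and 240 with both. For Atp6v1d it was 0.3902 (adjusted p = 0.0444), with 184 and 180 CPM in Control, 163 and 170 with BDNF, 143 and 152 with the H2BE virus, and 172 and 182 with both. Each call was lost in 10 of 20 alternatives, among them leaving out either library of Control, of H2BE or of H2BE with BDNF. Over the alternatives the difference ran from 0.278 to 0.427 for Atp6v0b and from 0.313 to 0.437 for Atp6v1d.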

How the results depend on the processing

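Of 74 called or described gene differences, 0 changed sign under their 20 or 21 alternatives and 32 held under every one. Over all 31 genes, called or not, 0 to 5 signs per comparison changed under RLE or upper quartile scaling or the length and GC correction, that of Tfeb under the control virus among them. For members called higher and members called lower, BDNF against Control, the length and GC correction gave 7 higher, and DESeq2 and the fit of the compared groups alone gave 3 lower each; leaving out 1 library gave 1 to 6 higher and 2 to 7 lower. For members called higher and members called lower, H2BE+BDNF against H2BE, DESeq2 gave 3 and 4, and using replicate 1 minus replicate 3 as a library gave 5 lower; leaving out 1 library gave 2 to 10 and 4 to 9. For members called lower, H2BE against Control, the count was 3 with all 10 libraries, 2 with no low count filter or with the compared groups alone, and 0 with replicate 1 minus replicate 3 as a library, the replicate block, the length and GC correction, or both of the last; leaving out 1 library gave 0 to 2. For members called higher, H2BE+BDNF against BDNF, leaving out 1 library gave 0 to 1, and for members called higher, difference between the BDNF responses, all 10 libraries gave 2. The cause of these changes was not tested. The percent of tested genes called, against which these counts are read, ran from 15.8 to 47.6 for BDNF against Control and from 12.8 to 32.8 for H2BE+BDNF against H2BE.

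The replicate block gave 3 higher and 6 lower with BDNF under the control virus and 7 and 7 under the H2BE virus, and a block with crossed numbers, added after seeing the data, gave 5 and 7, and 9 and 9. With 2 libraries per group small changes of genes under a few CPM, such as Tfeb, Sgsh, Ctsz and Naglu, could not be detected.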
